A study of Mus musculus with 6 samples.

Results

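IGHV5-2, also known as VH81X, is the functional heavy chain variable (V) gene that lies nearest to the diversity (D) segments in the mouse. Its clonotypes were the rows of the 2 heavy chain tables whose best V hit, with the allele removed, was IGHV5-2. There were 115 of them among 14575 heavy chain clonotypes in all: 101 of 7794 came from the iB-μMT library and 14 of 6781 from that of the C57BL/6 (B6) mouse, named WT in the labels. A clonotype is 1 distinct CDR3 nucleotide sequence, the third complementarity-determining region where V, D and joining (J) segments meet.

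The iB-μMT mouse was a μMT recipient, a strain with a targeted Ighm allele that leaves it without mature B cells of its own. It was 8 to 10 weeks old, received 5 Gy of irradiation and was injected with 5000000 hematopoietic progenitors grown from an embryonic stem cell line of C57BL/6 origin. That line carries GFP and a doxycycline-inducible cassette of Runx1, Hoxa9 and Lhx2 in Rosa26, and the mouse drank doxycycline at 1 mg/mL. From its spleen, 4 weeks later, and from that of the B6 mouse, whose age was not given in the sources used here, 100000 naïve follicular B cells each were sorted by a gate that included CD45+IgD++IgM+CD23++CD21+ and was negative for lineage markers and CD138. The gate as described did not list GFP. Each group was 1 library from 1 mouse, so differences between the mice have no replicate check and no p-values are given. Intervals are 95% intervals that cover counting error only, and reads of amplified cDNA without molecular identifiers are not independent molecules.

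An antibody heavy chain gene is built in progenitor B cells by joining a D to a J segment and then a V to that DJ unit. Nucleases trim the segment ends, short palindromic bases can remain where a hairpin opens off-centre, and terminal transferase adds bases without a template. IGHV5-2 is known as one of the V genes most often rearranged in fetal and early progenitor B cells, and many of its heavy chains are known to pair poorly with the surrogate light chain.

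On GRCm38.p6, the assembly that mm10 denotes, RefSeq places Ighv5-2 as a V segment at chr12:113578504-113578990. The pseudogenes Ighv2-1 and Ighv5-1 lie 3.96 and 5.28 kb nearer to the D segments and were in neither table. Ighd3-1, the nearest D segment that is not a pseudogene, lies 53.2 kb away. On the other side the nearest V genes in the tables were IGHV2-2 at 9.28 kb, IGHV5-4 at 18.5 kb and IGHV2-3 at 32.2 kb.

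The V segment contributed up to 11 bases to CDR3. They are shown because every untrimmed clonotype without a mismatch, 79 of 79 over both libraries, began with them.
end of IGHV5-2 in CDR3: tgtgcaagaca

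To show what the largest clonotypes look like, the 5 IGHV5-2 clonotypes with the most reads in each library are given next, 5′ to 3′. Bases that MiXCR assigned to V, D and J are in lower case, and capitals mark inserted bases, those it placed between the segment ends. Lower case includes bases assigned to D or J beyond the end of the segment, as in iB clonotype 5 and WT clonotype 5. Such lower-case bases need not come from that segment. Where no D was found, capitals mark all bases between V and J.
iB clonotype 1: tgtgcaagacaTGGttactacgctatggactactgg
iB clonotype 2: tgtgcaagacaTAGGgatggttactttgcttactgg
iB clonotype 3: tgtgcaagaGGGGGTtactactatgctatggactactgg
iB clonotype 4: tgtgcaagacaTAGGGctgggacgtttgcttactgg
iB clonotype 5: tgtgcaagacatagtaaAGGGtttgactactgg
WT clonotype 1: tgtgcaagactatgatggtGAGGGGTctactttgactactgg
WT clonotype 2: tgtgcaagacaTGGCgctatggactactgg
WT clonotype 3: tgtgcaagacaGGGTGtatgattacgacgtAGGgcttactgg
WT clonotype 4: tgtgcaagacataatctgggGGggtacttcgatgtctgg
WT clonotype 5: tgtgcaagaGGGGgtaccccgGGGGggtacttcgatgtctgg

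The iB clonotypes had 231, 217, 199, 190 and 186 reads. The WT clonotypes had 408, 285, 170, 144 and 98 reads. The 3 largest WT clonotypes therefore included 2, the first and the third, that carried a stop codon within the D bases, whereas none of these 5 iB clonotypes did.

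IGHV5-2 was rare in the WT library and more frequent in the iB library. It made up 1.30% of iB clonotypes (interval 1.06 to 1.57%) and 0.207% of WT clonotypes (0.113 to 0.346%), a difference of 1.09 percentage points (Newcombe interval 0.822 to 1.38). The fold was 6.28 (exact conditional interval 3.57 to 11.9). By reads it was 7.23, and 12.7 over productive clonotypes only, since clonotypes with a stop codon held 44.2% of the gene's WT reads. In the iB library 17 V genes had more clonotypes than IGHV5-2, and in the WT library 74 did.

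A fold was taken for the 77 IGHV genes whose clonotypes summed to 20 or more over the 2 libraries, and 13 (16.9%) had a clonotype share at least 2 times higher in iB and 17 had a share at most 0.5 times that of WT. IGHV5-2 had the highest fold of the 77. The genes with the nearest log2 folds, over 2 libraries, were IGHV2-2 at 5.37 (interval 4.01 to 7.32), IGHV2-3 at 4.54 (2.72 to 7.997) and IGHV5-12 at 4.01 (2.65 to 6.27), and all 3 intervals overlap that of IGHV5-2. The closest neighbours on the chromosome were IGHV2-2, IGHV2-3 and IGHV5-4, whose fold was 3.73 (3.24 to 4.32). Of the 13 genes past the fold, 10 belonged to the IGHV2 or IGHV5 families, which made up 15 of the 77, and the 5 others of these families had folds of 0.921 to 1.63. When genes with fewer clonotypes were let in, IGHV11-2, with 10 iB clonotypes and 1 WT clonotype, stood above IGHV5-2.

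**Figure D1:**
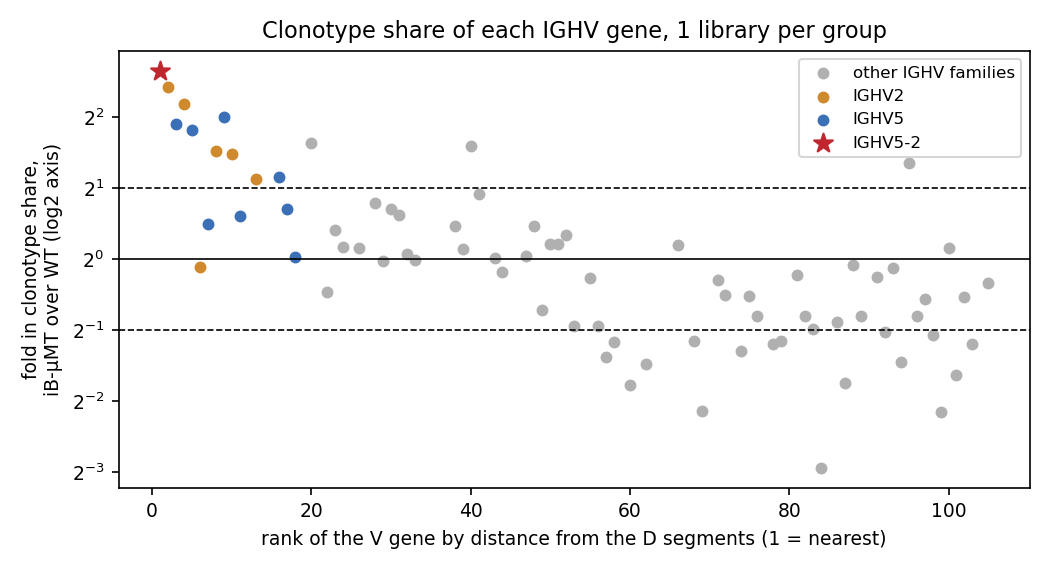
Fold in clonotype share of 77 IGHV genes, iB-μMT over WT, on a log2 axis against the rank of the gene by distance from the D segments, 1 library per group. Dashed lines mark 2-fold and 0.5-fold. IGHV5-2, at rank 1, is the highest point at 6.28, and IGHV2-2 at rank 2 follows at 5.37.

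All 115 clonotypes had a single best V hit, as did 99.6% of all other IGHV clonotypes in iB and 99.7% in WT. IGHM, the μ constant region, was the best constant region hit of 100 of 101 iB clonotypes, with no hit for the other. It was also that of 14 of 14 WT clonotypes, although the labels name the heavy chain libraries IgG. Among all other IGHV clonotypes, IGHM was the best hit of 98.1% in iB and 98.6% in WT. Every CDR3 was in frame, as were all 7794 iB and 6781 WT heavy chain clonotypes. Shares of stop codons and of productive clonotypes therefore concern clonotypes in frame only. A mismatch to the V segment inside CDR3 was found in 1.74% of all other IGHV clonotypes in iB and 2.10% in WT. In IGHV5-2 it occurred in 3 iB clonotypes (2.97%) and in no WT clonotype. One of them, iB clonotype 11 with 145 reads, had a CDR3 that the WT table also holds, at 182 reads, under IGHV1-59. It was the only CDR3 of the gene found in both libraries, so the V gene of this clonotype is uncertain. No IGHV5-2 clonotype itself occurred in both libraries.

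IGHV5-2 clonotypes used IGHJ1 more often and IGHJ2 less often than all other IGHV clonotypes of the same mouse. J segments encode the last part of the variable domain, and IGHJ1 is the one closest to the D segments. In iB, 37 clonotypes used IGHJ1, 8 IGHJ2, 25 IGHJ3 and 31 IGHJ4. In WT, 6 used IGHJ1, 1 used IGHJ2, 5 used IGHJ3 and 2 used IGHJ4.

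IGHJ1 made up 36.6% of iB IGHV5-2 clonotypes (27.3 to 46.8%), against 13.9% of all other IGHV clonotypes and 13.2% of the other IGHV5 genes. The difference from all other IGHV clonotypes was 22.7 percentage points (13.9 to 32.5). In WT, IGHJ1 made up 42.9% (17.7 to 71.1%) against 16.4%, a difference of 26.4 points (4.94 to 51.0). No other V gene with at least 20 clonotypes reached the IGHJ1 share of IGHV5-2, among 70 in iB, where the next was IGHV7-1 at 31.3%, and among 65 in WT. In WT, IGHV5-2 itself had 14 clonotypes and is below that limit.

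IGHJ2 was scarce. It made up 7.92% of iB IGHV5-2 clonotypes (3.48 to 15.01%) against 33.6% of all other IGHV clonotypes, a difference of -25.7 points (-29.7 to -18.7). In WT the share was 7.14% against 32.8%, a difference of -25.7 points (-31.6 to -1.31), and rested on 1 clonotype. Against the other IGHV5 genes of WT the difference was -22.8 points (-29.5 to 1.67), an interval that takes in 0. That clonotype, WT clonotype 1, was the largest one and held 24.6% of the gene's WT reads. Of the 70 other V genes in iB, 69 had a higher IGHJ2 share, and IGHV5-15 at 6.52% had a lower one. Between the 2 mice the IGHJ1 share of IGHV5-2 differed by -6.22 points (iB minus WT, -32.3 to 17.4), an interval that takes in 0.

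**Figure D2:**
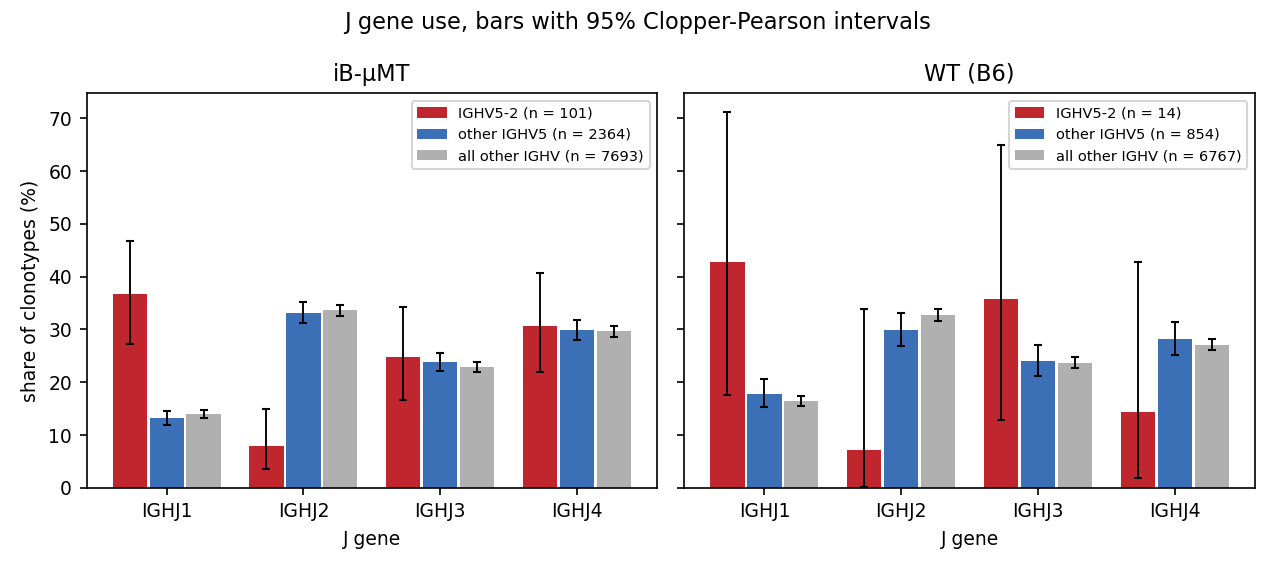
Share of clonotypes (%) with each J gene for IGHV5-2, the other IGHV5 genes and all other IGHV genes, in the iB-μMT (left) and WT (right) libraries. Bars are shares with 95% Clopper-Pearson intervals, and IGHV5-2 is above both comparators for IGHJ1 and below them for IGHJ2 in both libraries, with wide intervals for the 14 WT clonotypes.

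The D genes were spread. D segments supply the centre of CDR3. In iB the most frequent were IGHD4-1, also called DQ52 and the D segment closest to J, with 21 clonotypes, and IGHD1-1, also called DFL16.1, with 13. They were followed by IGHD2-8 with 11, IGHD2-3 with 10, IGHD2-4 with 7, IGHD3-2 with 6 and IGHD2-7 with 5. IGHD2-5 and IGHD3-1 had 2 each, and IGHD5-1, IGHD5-2 and IGHD5-7 had 1 each. No D was found in 21. In WT, IGHD2-4 and IGHD2-5 had 3 clonotypes each, IGHD1-1 and IGHD4-1 had 2 each, IGHD2-3 and IGHD3-1 had 1 each, and 2 had no D. The 2 WT clonotypes with IGHD1-1 differ by 1 base, as do the 2 with IGHD4-1, and both pairs are described below. Near-identical D segments share bases, and the best D hit was unique in 71 of 80 iB clonotypes and 9 of 12 WT clonotypes.

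Grouped, the IGHD2 genes made up 34.7% of iB IGHV5-2 clonotypes against 43.8% of all other IGHV clonotypes, a difference of -9.18 points (-17.8 to 0.573). The IGHD4-1 share was 20.8% against 16.3%, and its difference of 4.53 points (-2.29 to 13.5) takes in 0. For IGHD1-1 the share was 12.87% against 19.45%, a difference of -6.575 points (-11.8 to 1.39). Clonotypes without a D hit made up 20.8% against 12.8%, a difference of 7.98 points (1.16 to 16.9). A missing D hit need not mean that no D bases are present. iB clonotypes 18, 49 and 53 had no D hit and 5 bases assigned beyond the J end each. They read ggtagtagctac, as does iB clonotype 23, which was assigned IGHD1-1. How often this occurred in other V genes was not counted. None of the 5 D groups had an interval for the difference between the mice that left out 0.

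The excess of IGHJ1 was larger where the D was IGHD4-1, with intervals that did not overlap, a split made after the J shares were seen. Of 21 such iB IGHV5-2 clonotypes, 14 used IGHJ1, which is 66.7% (43.0 to 85.4%) against 14.2% (12.3 to 16.3%) of the IGHD4-1 clonotypes of all other IGHV genes. Without IGHD4-1 the IGHJ1 share was 28.8% (19.2 to 40.0%) against 13.9% (13.04 to 14.8%). In WT, both IGHD4-1 clonotypes used IGHJ1, and they differ from each other by 1 base, as described below.

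The mean number of inserted bases was lower in iB than in WT, in IGHV5-2 as over all other V genes. Over clonotypes with a D, the mean number inserted in IGHV5-2 was 3.54 ± 2.86 in iB (SD over 80 clonotypes, median 3, range 0 to 14) and 5.92 ± 3.03 in WT (12 clonotypes, median 5.5, range 2 to 13). For all other IGHV genes it was 4.33 ± 3.09 and 6.36 ± 3.86. At the V to D junction the IGHV5-2 mean was 2.45 in iB and 2.83 in WT, and at the D to J junction it was 1.09 and 3.08. The difference in the total between the mice was smaller than the SD over clonotypes in either. A reading added after the data were seen counted bases beyond the D and J segment ends as inserted. The IGHV5-2 mean was then 4.78 in iB and 9 in WT, against 6.20 and 8.56 over all other V genes. This reading overcounts: WT clonotype 5 had 17 such bases counted, against 8 D bases and 16 bases between V and J. With 12 WT clonotypes, the order against the other V genes cannot be read from it.

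No inserted base was found in 15 of 80 iB clonotypes with a D, or 18.8% (10.9 to 29.0%), against 8.65% of all other IGHV clonotypes, a difference of 10.1 points (3.02 to 20.03), and 5.52% of the other IGHV5 genes. Of 66 other V genes with at least 20 such clonotypes, 3 had a higher share. In WT the count was 0 of 12, for which the Clopper-Pearson upper bound is 26.5%, against 2.80%. The 15 are shown because MiXCR left no base between their segments.
iB clonotype 7: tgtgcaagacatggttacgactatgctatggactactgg
iB clonotype 10: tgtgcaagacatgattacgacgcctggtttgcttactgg
iB clonotype 11: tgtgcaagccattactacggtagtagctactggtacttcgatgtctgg
iB clonotype 19: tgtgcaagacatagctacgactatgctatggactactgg
iB clonotype 23: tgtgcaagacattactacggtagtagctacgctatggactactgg
iB clonotype 38: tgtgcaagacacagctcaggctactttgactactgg
iB clonotype 43: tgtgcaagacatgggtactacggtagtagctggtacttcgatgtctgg
iB clonotype 45: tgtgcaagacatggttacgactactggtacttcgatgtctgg
iB clonotype 46: tgtgcaagactgggacggtttgcttactgg
iB clonotype 48: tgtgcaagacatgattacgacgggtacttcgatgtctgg
iB clonotype 51: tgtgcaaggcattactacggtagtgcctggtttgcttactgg
iB clonotype 83: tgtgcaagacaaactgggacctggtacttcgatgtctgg
iB clonotype 87: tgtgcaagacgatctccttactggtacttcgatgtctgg
iB clonotype 93: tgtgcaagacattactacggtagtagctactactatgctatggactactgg
iB clonotype 94: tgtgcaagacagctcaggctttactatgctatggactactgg

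MiXCR counts bases beyond the end of a D or J segment as part of that segment. Of these 15 clonotypes 8 had none, and the others had 1 to 7, as in iB clonotypes 11 and 43, where 5 such bases were assigned to IGHJ1. With those bases counted as inserted, the share was 10% (4.42 to 18.8%) against 3.92%. In iB clonotypes 11 and 93 those bases lie in a stretch that iB clonotype 23, assigned IGHD1-1, also reads. Counting them as inserted may therefore leave out joins without inserted bases. iB clonotypes 11, 23, 51 and 93 shared a stretch of IGHD1-1, and 11 and 51 are among the 3 with a mismatch in V. iB clonotype 43, assigned IGHD2-3, also reads tactacggtagt from that stretch. Its D gene, and with it the absence of inserted bases, is therefore uncertain.

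**Figure D3:**
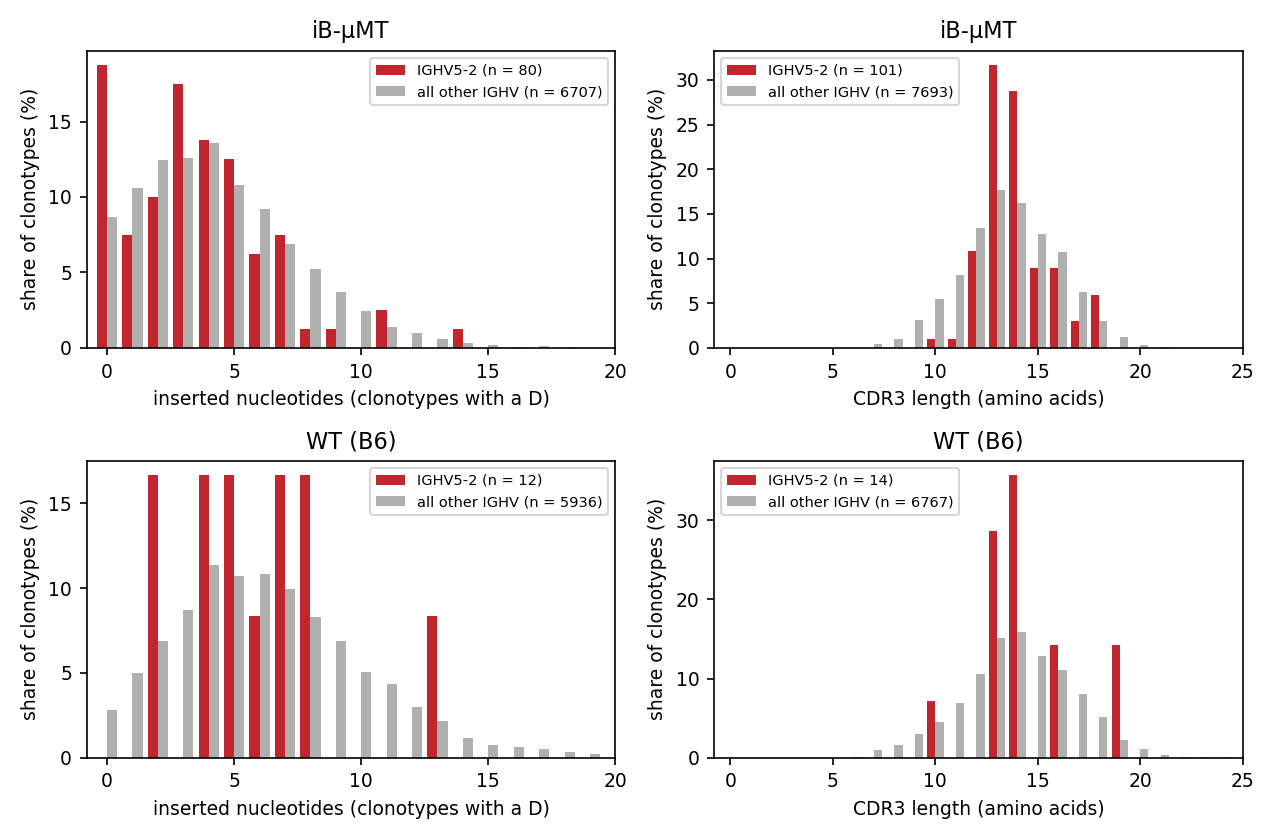
Share of clonotypes (%) by number of inserted nucleotides (left, clonotypes with a D) and by CDR3 length in amino acids (right) in the iB-μMT (top) and WT (bottom) libraries, for IGHV5-2 and all other IGHV genes. The tallest IGHV5-2 bar for insertions in iB is at 0 (18.8%), and IGHV5-2 lengths lie between 10 and 18 in iB.

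The V end was untrimmed in 74 of 101 iB clonotypes, or 73.3% (63.5 to 81.6%), and in 7 of 14 WT clonotypes, or 50% (23.0 to 77.0%). Other IGHV5 genes were untrimmed in 89.7% and 85.7%, and all other IGHV clonotypes in 73.25% and 70.5%. The difference from all other IGHV clonotypes was 0.0189 points in iB (-9.40 to 7.75) and -20.5 points in WT (-43.7 to 2.75). Both intervals take in 0. The length of V left in CDR3 was 10.6 ± 0.691 bases in iB (range 8 to 11) and 10.1 ± 1.14 in WT (range 8 to 11). After an untrimmed end without a mismatch, the next base was T in 50 of 72 iB clonotypes, or 69.4% (57.5 to 79.8%), and in 3 of 7 WT clonotypes. The next pair was TG, the palindrome of the last bases of V, in 32 of the 72 (44.4%) and in 1 of the 7. MiXCR counted such a palindrome at the V end as inserted unless D or J could supply it. No untrimmed clonotype of another V gene had the same 11 bases, so there is no comparator for this count.

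CDR3 length differed between the mice by less than its SD over clonotypes. It measured 13.99 ± 1.64 amino acids in iB (SD over 101 clonotypes, median 14, range 10 to 18) and 14.4 ± 2.41 in WT (14 clonotypes, median 14, range 10 to 19). All other IGHV clonotypes measured 13.6 ± 2.38 and 13.9 ± 2.71. The SD was smaller in iB IGHV5-2 clonotypes than in those of all other V genes. The mean number of tyrosines, common in the CDR3 of antibodies, was 2.45 ± 1.16 in iB and 1.64 ± 1.08 in WT, against 2.69 ± 1.39 and 2.43 ± 1.34 in all other IGHV clonotypes.

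D segments can be read in 3 frames. Among IGHD1-1 and IGHD2 clonotypes of IGHV5-2 in iB, 43 of 48, or 89.6% (77.3 to 96.5%), were read in the frame that would put the first base of the untrimmed D segment at the second position of a codon. This frame had the most tyrosines here, with a mean of 3.02 per CDR3. The share was 80.0% in all other IGHV clonotypes. In WT it was 5 of 8, or 62.5% (24.5 to 91.5%), against 74.1%.

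Stop codons were more frequent in the WT clonotypes. They were found in 2 of 101 iB IGHV5-2 clonotypes, or 1.98% (0.241 to 6.97%), and in 5 of 14 WT clonotypes, or 35.7% (12.8 to 64.9%), a difference of -33.7 points (-59.3 to -13.7). All other IGHV clonotypes had stop codons in 0.663% and 2.14%. The WT difference from them was 33.6 points (14.2 to 59.1). None of 65 other V genes with at least 20 clonotypes in WT reached this share, the highest being IGHV15-2 at 10%. IGHV5-2, with 14 WT clonotypes, is itself below that limit, and a smaller set gives more extreme shares. By reads, clonotypes with a stop codon held 2.18% of the gene's reads in iB and 44.2% in WT, against 0.391% and 0.465% in all other IGHV clonotypes. In both iB clonotypes and in 4 of the 5 WT clonotypes the stop codon overlapped the D bases.
WT clonotype 9: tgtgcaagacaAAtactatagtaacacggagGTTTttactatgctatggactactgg
WT clonotype 11: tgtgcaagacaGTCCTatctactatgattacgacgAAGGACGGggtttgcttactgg
WT clonotype 14: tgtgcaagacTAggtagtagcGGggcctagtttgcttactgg
iB clonotype 13: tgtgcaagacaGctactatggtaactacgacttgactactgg
iB clonotype 80: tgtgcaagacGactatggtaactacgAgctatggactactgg

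These 5 complete the set of 7 clonotypes with a stop codon and show where it arises. In both iB clonotypes, and in WT clonotypes 1, 3 and 11, D was read in the frame that would put the first base of the untrimmed D segment at the third position of a codon. WT clonotype 14, with 3 reads and its stop codon outside D, differed by 1 base from WT clonotype 12, with 42 reads. WT clonotype 13, with 6 reads, likewise differed by 1 base from WT clonotype 4, with 144 reads. The lowest CDR3 base quality scores were 34 and 25 in the smaller members of these pairs and 38 in the other 12 WT clonotypes. With both merged into the larger clonotypes, 4 of 12 carried a stop codon.

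No single clonotype held a large share of the iB reads. IGHV5-2 clonotypes had a median of 67 reads in iB (mean 78.2 ± 47.2, range 2 to 231) and of 96.5 in WT (mean 119 ± 110, range 3 to 408). The median over all other IGHV clonotypes was 97 in iB and 185 in WT, and over the other IGHV5 genes 62 and 87. Of the 70 other V genes in iB, 63 had a higher median. The 5 largest of 101 clonotypes held 12.95% of the gene's reads in iB, and the 5 largest of 14 held 66.5% in WT. These 2 shares are not alike, because 5 clonotypes are a larger part of the WT set. In each library 2 clonotypes had fewer than 10 reads.

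**Figure D4:**
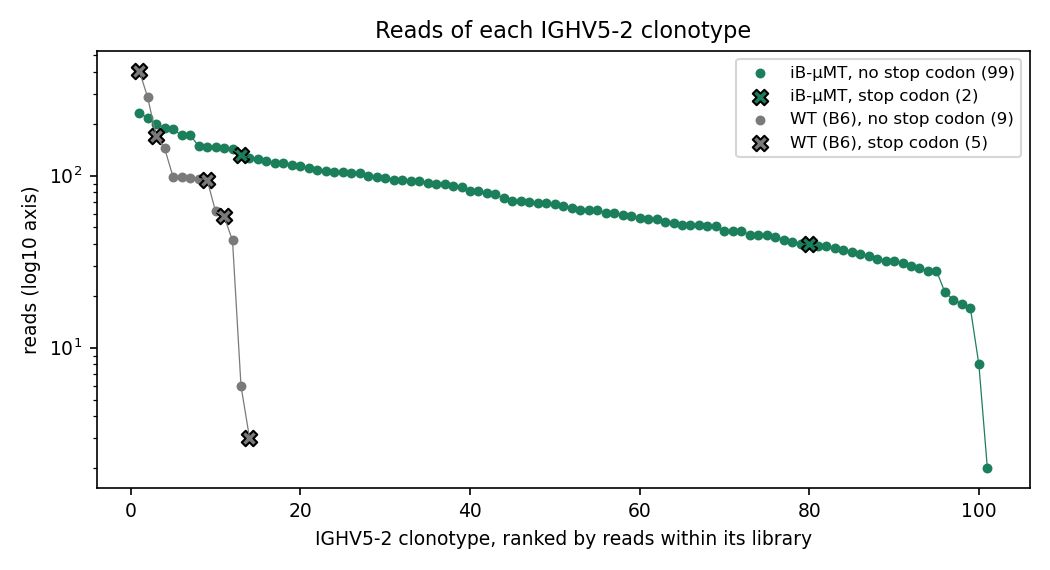
Reads of each IGHV5-2 clonotype on a log10 axis, ranked within its library, for 101 iB-μMT and 14 WT clonotypes. Crosses mark stop codons, which include the WT clonotype with the most reads (408), while the iB clonotypes lie between 2 and 231 reads.

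The 101 iB clonotypes encoded 97 distinct CDR3 amino acid sequences, and 4 of these were each encoded by 2 clonotypes. The 14 WT clonotypes encoded 14. The 4 iB pairs are shown so that their bases can be compared.
iB clonotype 18: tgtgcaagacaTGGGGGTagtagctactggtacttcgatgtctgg
iB clonotype 53: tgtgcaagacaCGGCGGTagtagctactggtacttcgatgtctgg
iB clonotype 34: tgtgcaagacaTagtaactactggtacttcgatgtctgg
iB clonotype 79: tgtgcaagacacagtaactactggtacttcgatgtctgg
iB clonotype 37: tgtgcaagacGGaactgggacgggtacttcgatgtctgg
iB clonotype 88: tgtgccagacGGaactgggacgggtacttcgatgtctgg
iB clonotype 98: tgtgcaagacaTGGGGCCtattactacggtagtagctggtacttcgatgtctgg
iB clonotype 101: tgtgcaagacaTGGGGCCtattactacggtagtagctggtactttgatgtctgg

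The first 2 pairs, with 118 and 63 reads and with 93 and 40 reads, had no D hit, used IGHJ1 and differed just after the V end. In the pair with 93 and 40 reads the difference was 1 base. The pair with 89 and 33 reads used IGHD4-1 and IGHJ1 and differed by 1 base inside the V bases. The last pair, with 18 and 2 reads, used IGHD1-1 and IGHJ1 and differed by 1 base in J. Its smaller member had a lowest CDR3 base quality score of 37, against 38 in the other 100 iB clonotypes. It was not merged, because the larger member had fewer than 10 times its reads. Whether the differences of 1 base arose in amplification or sequencing was not tested. All 8 clonotypes used IGHJ1.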

How the data were processed

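Heavy chain libraries of 1 iB-μMT and 1 B6 mouse were analysed; the 4 light chain libraries were not used. The authors amplified immunoglobulin cDNA by 5′ RACE, sequenced it on a MiSeq and assembled CDR3 clonotypes with MiXCR. The submitters' processing notes name bcl2fastq and mm10. Deposited values were read counts per clonotype, the fraction of reads per clonotype, which was not used in calculations, and the lowest CDR3 base quality score. Totals were 909806 reads in iB and 1383617 in WT, and no clonotype of IGHV5-2 had 1 read only.

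V, D and J were the best hits with the allele removed. Inserted bases were taken from the deposited segment boundaries. Shares carry Clopper-Pearson intervals, differences of shares Newcombe intervals and the fold an exact interval conditional on the summed clonotypes, each at 95%, computed with SciPy in Python. Over 12 features, 60 differences were computed, 18 intervals left out 0, and no correction for their number was made. The measures were tested on simulated data. IGHV5-2, the gene lists and the tests were chosen with earlier results of these data known. Genes named were IGHV5-2, the 3 with the nearest log2 fold among those with at least 20 clonotypes, the 3 nearest on the locus and every D and J gene used, and genes outside this rule (IGHV11-2, IGHV7-1, IGHV5-15, IGHV15-2, IGHV1-59) were chosen after their values were seen. Clonotypes printed were the 5 with most reads per library, those without an inserted base and those with a repeated amino acid sequence, to which those with a stop codon were added after the data were seen. All 105 V genes of the tables matched a RefSeq entry of GRCm38.p6. Alternatives were minimum reads of 2 and 5, merging of clonotypes 1 mismatch apart with at least 10 times the reads, unique V hits, clonotypes of both libraries left out, productive clonotypes, weighting by reads, D matches of at least 8 bases, all V genes and equal read numbers.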

Additional observations from a re-analysis of the deposited data

How the results depend on the processing

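Of 228 values recomputed under 12 settings, 220 stayed within their interval, spread or 1.5-fold margin. A reversal was checked only for the fold of IGHV5-2, which stayed above 1. The fold of IGHV5-2 ranged from 6.20 with equal read numbers to 9.42 with productive clonotypes only. That filter removed 5 WT clonotypes with 734 reads and took the WT read share to 0.0674%, and the WT IGHJ2 share to 0%, since the 1 clonotype with IGHJ2 was among them. With all 96 V genes found in each library, IGHV5-2 had rank 2. With at least 8 bases of D, the IGHD2 share in iB was 49.2% and the share without D was 0% in both libraries by construction. With bases beyond the D and J ends counted as inserted, added after seeing the data, the iB share without insertion was 10%. The mean was 4.78 bases in iB and 9 in WT, and the count exceeded the bases present in WT clonotype 5. No paired analysis was possible because each group is 1 library. The 14 WT clonotypes limit every WT share, and 1 mouse per group leaves the variation between mice unmeasured.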
